A study of Mus musculus with 21 samples.

Results

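Lmo2 and Cbfa2t3 were compared as knockouts of the same lymphoid progenitor (LP) cells, with the 3 sgLmo2 libraries set directly against the 3 sgCbfa2t3 libraries and the sgControl libraries left out of the fit. The comparison asks where loss of a bridging factor and loss of a corepressor of the same complex leave different transcripts. Of the 55421 genes in the expression table, 16284 had a read in at least 1 of these 6 libraries, and the 11583 whose values averaged more than 1 TPM across the 6 were tested. The LPs are an *Ebf1*-deficient mouse line (strain given as C57BL6/J) kept on OP9 stroma with SCF, Flt3L and IL-7. They carried Cas9-GFP and were infected with retroviral sgRNA marked by hNGFR. The guides targeted *Lmo2* in one group and *Cbfa2t3* in the other, and GFP+hNGFR+ cells were sorted 5 days later without Notch stimulation. In sgControl, shown beside the results, the guide had no mouse target. All groups thus share the *Ebf1* deletion, the Cas9 virus and the stroma. A sorted population holds cells with different edits, so that a group is a mixture of edited and possibly unedited cells of 1 line.

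Lmo2 is a LIM-only protein that does not bind DNA itself. With Ldb1 it bridges basic helix-loop-helix factors (Tal1 or Lyl1 paired with an E protein), which read E-box sequences, and GATA factors. Cbfa2t3, also called Eto2 or Mtg16, is an ETO family protein that joins these assemblies and brings histone deacetylase corepressors to them. Both proteins are known from hematopoietic stem and erythroid cells, and *LMO2* is an oncogene of T cell leukemia.

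The libraries were 3′ tag libraries of 1751378 to 2045446 recovered reads, in which 3 reads were worth 1.47 to 1.71 TPM. Replicates of a group correlated with r = 0.955 to 0.961 over the genes tested on the log2 scale. Markers of the OP9 stroma (6 of 28 passed the filter) summed to between 1307 and 1760 TPM in each of the 6 libraries, with overlapping groups. *Lgals1* and *Igfbp4*, which other cells also express, made up nearly all of that sum, with group means of 854 and 738 TPM and of 686 and 723 TPM in sgLmo2 and sgCbfa2t3. The defining stroma gene *Pdgfrb* had means of 7.02 and 4.41 TPM, and *Sparc*, *Fn1* and *Timp3* lay lower. Of the 6, 5 had a positive difference, with a median log2 difference (sgLmo2 minus sgCbfa2t3) of 0.51 and adjusted p of 0.326 or more, and the part of stroma RNA in the results was not tested. *Ebf1* itself gave 249, 310.0 and 303 TPM in sgLmo2 and 253, 251 and 289 TPM in the libraries labelled sgCbfa2t3, and a 3′ tag outside the deleted part says nothing of the deletion. In these bulk libraries fewer cells of a type and less RNA per cell cannot be told apart.

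Neither targeted mRNA was detectably lower in its own knockout. *Lmo2* read 8.48, 24.4 and 15.9 TPM in the sgLmo2 libraries, 16.1, 10.3 and 14.4 TPM in the libraries labelled sgCbfa2t3, and 23.2, 16.2 and 15.8 TPM in sgControl. These groups overlap, and the log2 difference (sgLmo2 minus sgCbfa2t3, used throughout) was 0.15 with a standard error (SE) of 0.34 (adjusted p = 0.935). The sgLmo2 mean of 16.3 TPM stood below the sgControl mean of 18.4 TPM. With 15, 50 and 29 reads in sgLmo2, these values cannot show that no decrease took place. *Cbfa2t3* read 340.5, 344 and 364 TPM in the libraries labelled sgCbfa2t3, against 179, 162 and 178 TPM in sgLmo2 and 209.6, 189 and 172 TPM in sgControl. The targeted gene was thus higher, not lower, in its own knockout, with a log2 difference of -1.01 ± 0.10 (SE) and an adjusted p of 1.08e-09. The mRNA of a target did not check its label, so each direction below is between libraries as labelled. As with *Cbfa2t3*, but not *Lmo2*, the target read above sgControl in the series' other knockouts. *Zbtb1* had 94.4, 113 and 109 TPM in sgZbtb1 against 62.7, 66.6 and 55.7 TPM. *Cbfa2t2* had 25.5, 23.9 and 16.4 TPM in sgCbfa2t2 against 11.03, 12.2 and 12.3 TPM. A 3′ tag away from the cut site does not show small edits, and loss of the proteins was assessed in the study by immunoblot, which was not analysed here. The other genes targeted in the series, *Cbfa2t2* (-0.13 ± 0.33, adjusted p = 0.94) and *Zbtb1* (-0.33 ± 0.16, adjusted p = 0.508), did not pass.

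The comparison called 72 genes at an adjusted p under 0.05, which is 0.622% of the genes tested. Of these, 51 were higher in sgLmo2 (0.44%) and 21 were higher in the libraries labelled sgCbfa2t3 (0.181%). Differentially expressed genes (DEGs), defined with the thresholds of the study (unadjusted p under 0.05, absolute log2 difference above 1, mean above 10 TPM in either group), numbered 73 (0.63%), with 55 higher in sgLmo2 (0.475%) and 18 higher in sgCbfa2t3 (0.155%). Both rules were met by 26 genes, since many called genes were abundant and differed by less than 1 on the log2 scale. The median size of the called differences was 0.81. At an unadjusted p under 0.05 there were 1103 genes. Without sgLmo2 replicate 3 the adjusted count was 39, and without sgLmo2 replicate 1 the DEGs numbered 127. The groups of 3 did not overlap for 71 of the 72 called genes, *Xbp1* being the exception, and for 1676 of all genes tested (14.5%).

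**Figure D1:**
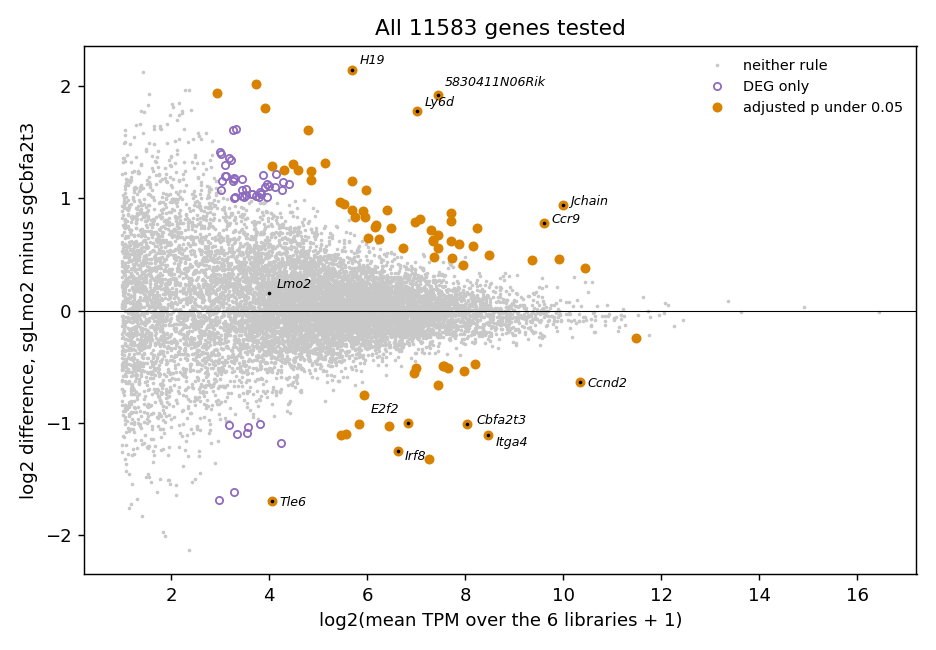
Each point is 1 of the 11583 genes tested, with its mean over the 6 libraries on the x axis (log2 of TPM + 1) and the log2 difference, sgLmo2 minus sgCbfa2t3, on the y axis. Filled orange points are the 72 genes with an adjusted p under 0.05, open purple points are DEGs that missed it, and the spread of the grey points is widest at low means.

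Cbfa2t3 occupied chromatin near many of these genes, and the peak sequences are given first. In the ChIP-seq of unperturbed LPs, 45 of the 72 called genes (62.5%, exact 95% interval 50.3% to 73.6%) were the nearest gene of at least 1 Cbfa2t3 peak, compared with 2428 of all 11583 genes tested (21.0%). Both directions held such genes, 31 of the 51 higher in sgLmo2 (60.8%) and 14 of the 21 higher in sgCbfa2t3 (66.7%). The centres of 6 peaks within 10 kb of the start of a gene with one of the largest called differences are printed here as examples, 3 for each direction. They were chosen after their motifs were seen, so how the motifs divide among them says nothing of the directions. Each is 200 bases of GRCm38.p6 (mm10), plus strand, 5′ to 3′, with motif matches on either strand in capitals. The Runx core was searched as TGTGGT. The E-box, of the kind read by E proteins with Tal1 or Lyl1, was CAGNTG. The GATA factor motif was AGATAA.
Cbfa2t3 peak, chr8:122700664-122700863: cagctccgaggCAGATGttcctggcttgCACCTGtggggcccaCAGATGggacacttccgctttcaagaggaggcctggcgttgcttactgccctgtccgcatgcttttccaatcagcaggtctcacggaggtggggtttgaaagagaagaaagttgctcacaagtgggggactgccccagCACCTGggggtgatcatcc
Dntt peak, chr19:41022294-41022493: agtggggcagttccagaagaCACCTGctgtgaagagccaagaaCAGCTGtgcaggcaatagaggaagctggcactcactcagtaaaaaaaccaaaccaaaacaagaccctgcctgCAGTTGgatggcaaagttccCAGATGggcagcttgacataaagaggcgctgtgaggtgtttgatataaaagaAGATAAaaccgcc
Tmem119 peak, chr5:113800316-113800515: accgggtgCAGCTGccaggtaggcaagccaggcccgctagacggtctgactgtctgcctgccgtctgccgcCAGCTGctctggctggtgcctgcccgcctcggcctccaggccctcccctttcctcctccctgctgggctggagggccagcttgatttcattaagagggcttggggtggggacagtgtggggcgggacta
Cd163l1 peak, chr7:140213984-140214183: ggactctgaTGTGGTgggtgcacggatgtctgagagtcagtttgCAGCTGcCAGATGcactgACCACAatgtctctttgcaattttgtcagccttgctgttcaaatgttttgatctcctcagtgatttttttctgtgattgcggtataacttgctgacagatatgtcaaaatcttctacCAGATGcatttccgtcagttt
Txk peak, chr5:72761380-72761579: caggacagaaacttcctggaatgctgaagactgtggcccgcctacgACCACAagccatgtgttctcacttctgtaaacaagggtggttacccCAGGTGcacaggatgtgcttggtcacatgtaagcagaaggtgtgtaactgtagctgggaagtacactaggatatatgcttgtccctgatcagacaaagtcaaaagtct
Cd7 peak, chr11:121038949-121039148: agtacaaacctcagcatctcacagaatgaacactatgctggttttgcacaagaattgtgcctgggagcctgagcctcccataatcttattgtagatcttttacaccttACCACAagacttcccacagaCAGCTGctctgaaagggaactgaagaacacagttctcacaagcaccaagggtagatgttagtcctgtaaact

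The first 3 belong to genes higher in the libraries labelled sgCbfa2t3. The peak by *Cbfa2t3* was the strongest near any called gene, with a score of 514.6, and lay at -1654 bases from the gene's start (negative is upstream) with 4 E-boxes and no Runx core in its centre. A Zbtb1 peak with a score of 16.7 overlapped it. The *Dntt* peak (score 167.2) lay at -6882 bases with 4 E-boxes and a GATA match, and the *Tmem119* peak (score 98.4) sat on the promoter, at -63 bases, with 2 E-boxes. The last 3 belong to genes higher in sgLmo2. The *Cd163l1* peak (score 69.1) lay at -4184 bases with 3 E-boxes and 2 Runx cores, the *Txk* peak (score 34.4) at -8702 bases with 1 of each, and the *Cd7* peak (score 23.7) at 430 bases, inside the gene, with 1 of each. Other peaks near genes with such differences held other sets. By genes higher in sgCbfa2t3, the *Dusp6* peak held 1 Runx core and 1 E-box, the *Irf8* and *Arid3a* peaks 1 E-box each and the *Hbb-bt* peak none of the motifs. The *Vcan* peak, by a gene higher in sgLmo2, held 3 E-boxes and no Runx core.

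Over all 6070 Cbfa2t3 peaks on the assembled chromosomes, 83.2% held the E-box, 43.7% the Runx core and 6.47% the GATA motif in the central 200 bases. Near the called genes, counted by peak, the E-box was about as frequent in both directions, in 56 of 66 peaks by genes higher in sgLmo2 (84.8%) and 29 of 37 by genes higher in sgCbfa2t3 (78.4%). The Runx core was in 41 of the 66 peaks by genes higher in sgLmo2 (62.1%) and in 10 of the 37 by genes higher in sgCbfa2t3 (27.0%). Peaks of 1 gene are not independent of each other, and a few genes carry many of them, *Mgst2* 11 of the 66, and *Cbfa2t3* and *Irf8* 10 and 8 of the 37. Counted by gene, 25 of the 31 genes higher in sgLmo2 that had a peak (80.6%) and 8 of the 14 higher in sgCbfa2t3 (57.1%) had the Runx core in at least 1, beside 50.5% of all genes tested that had a peak. Averaged with equal weight per gene, the core was in 63.9%, 38.0% and 39.7% of peaks. By gene the E-box also differed, with 28 of the 31 (90.3%) and 10 of the 14 (71.4%), beside 87.3%. Its averages per gene were 82.3%, 68.9% and 81.9%. These shares are given without a test. For Zbtb1 peaks the core was in 28 of 50 (56.0%) and 8 of 17 (47.1%), against 41.3% of all 5890. A match describes letters and is not a bound site.

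Well-expressed genes had peaks only slightly more often than all genes tested. Of the 8396 genes tested with a mean above 10 TPM in either group, 23.1% were nearest to a Cbfa2t3 peak and 31.1% to a Zbtb1 peak. They make up most of the genes tested, and their levels were not matched to those of the called genes. Zbtb1 peaks were nearest to 38 of the 72 called genes (52.8%), that is 26 of 51 (51.0%) and 12 of 21 (57.1%) by direction, against 27.3% of all genes tested. Both factors had a peak nearest to 29 of the 72 (40.3%), against 11.5% of all genes tested. For peaks within 10 kb of the promoter, the Cbfa2t3 share of the called genes was 40.3%, beside 12.8% of all genes tested. The DEGs had lower shares, with 46.6% of the 73 nearest to a Cbfa2t3 peak and 26.0% to one within 10 kb. The Zbtb1 share within 10 kb was 31.9% (exact 95% interval 21.4% to 44.0%), which covers the 22.2% of all genes tested and the 25.6% of those above 10 TPM. *Ly6d*, *5830411N06Rik*, *Pax5*, *Cdh1*, *Tle6* and *Pou2f2*, described next, had no peak of either factor nearest to them.

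**Figure D2:**
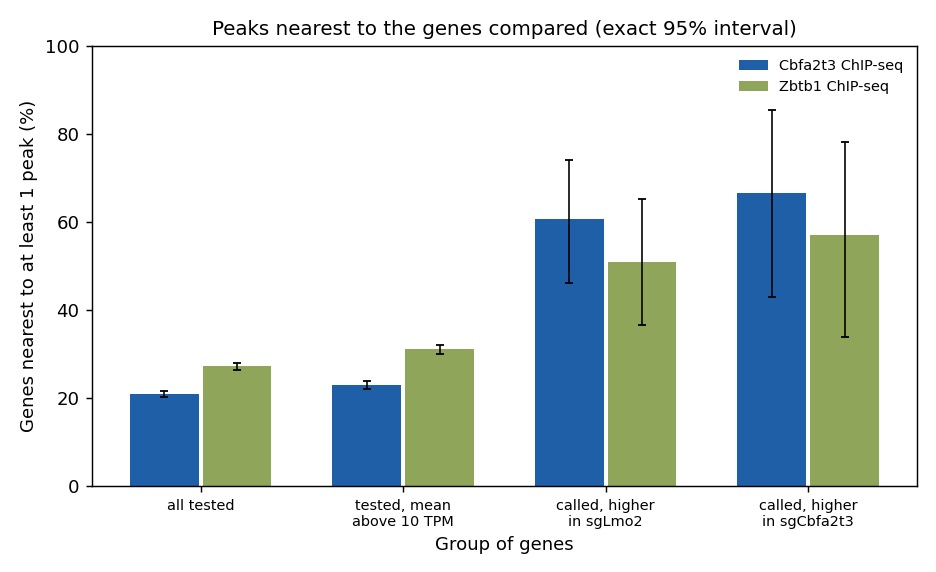
Bars give the percentage of genes that are the nearest gene of at least 1 Cbfa2t3 (blue) or Zbtb1 (green) peak, for all genes tested, those with a mean above 10 TPM, and the called genes in each direction, with exact 95% binomial intervals that cover counting error. The Cbfa2t3 bars stand at 21.0% and 23.1% for the tested genes and at 60.8% and 66.7% for the called genes.

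Several genes of the lymphoid surface and of the T lineage were higher in sgLmo2. *Ly6d* (chr15:74762056-74763620), a surface antigen of lymphoid-specified progenitors, read 179, 223 and 198 TPM in sgLmo2 and 55.2, 67.4 and 51.0 TPM in the libraries labelled sgCbfa2t3. No library of one group reached the other, and the log2 difference was 1.78 ± 0.14 (adjusted p = 6.56e-13). The sgControl libraries read 134, 155 and 186 TPM and overlapped sgLmo2. *Thy1*, the classical T cell surface glycoprotein, read 364, 397 and 374 TPM against 207, 251 and 222 TPM, a difference of 0.74 ± 0.10 (adjusted p = 1.61e-06). *Ccr9*, the chemokine receptor that directs progenitors to the thymus, was abundant in both groups, with 879, 939 and 1126 TPM against 497, 574 and 641 TPM (0.78 ± 0.09, adjusted p = 3.9e-08). Its gene model overlaps *Lztfl1* on the opposite strand, which was also called higher in sgLmo2, and without the strand setting of the counting their reads cannot be told apart. *Cdh1*, which encodes E-cadherin, read 44.1, 37.2 and 39.4 TPM against 13.9, 7.42 and 18.3 TPM (1.61 ± 0.28, adjusted p = 0.000308), and sgControl lay with sgLmo2 at 38.9, 38.8 and 36.9 TPM.

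Neighbouring scavenger receptor genes on chromosome 7 differed in the same direction. *5830411N06Rik* (chr7:140247284-140300736) encodes a scavenger receptor cysteine-rich protein known from gamma delta T cells, and read 323, 221 and 277 TPM in sgLmo2 but 79.9, 58.2 and 75.3 TPM in sgCbfa2t3. Its difference of 1.93 ± 0.13 had the smallest adjusted p of all genes tested, 3.67e-14, and sgControl, at 222, 109 and 158 TPM, had a mean between the groups and overlapped sgLmo2. *Cd163l1* (chr7:140218267-140231145), its relative upstream on the same strand, read 22.6, 20.5 and 22.5 TPM against 11.8, 4.00 and 3.32 TPM (1.81 ± 0.38, adjusted p = 0.00462). Reads in sequence shared by related genes can be divided between them, which was not resolved here. The call for *Cd163l1* was lost without sgLmo2 replicate 1 or 3 or sgCbfa2t3 replicate 2 (adjusted p = 0.0583, 0.0778 and 0.0524).

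Among the less abundant T lineage genes, *Cd7*, a surface protein of early T and NK cells, read 13.6, 33.7 and 13.7 TPM in sgLmo2 and 3.75, 6.28 and 2.21 TPM in sgCbfa2t3. The difference was 2.02 ± 0.41 (adjusted p = 0.00401), and without sgLmo2 replicate 2, its highest library, the adjusted p was 0.202. *Txk*, a Tec family kinase of T cells that was in none of the lists, read 35.1, 50.8 and 62.5 TPM against 12.3, 25.7 and 20.5 TPM (1.32 ± 0.25, adjusted p = 0.00141; 0.0976 without sgLmo2 replicate 3). *Bcl11b*, the transcription factor that fixes T commitment, met the DEG rule with 29.4, 18.1 and 28.5 TPM against 15.5, 5.71 and 13.3 TPM, but its adjusted p was 0.0991 (0.0388 without sgCbfa2t3 replicate 1). The T cell genes *Cd2* (1.18 ± 0.42, adjusted p = 0.268) and *Zap70* (1.01 ± 0.41, adjusted p = 0.384) likewise met the DEG rule alone. Of the 20 tested genes of the T lineage list, 3 were called (15%), all higher in sgLmo2, and 5 were DEGs, beside 0.622% and 0.63% of all genes tested. The list's median log2 difference was 0.34, beside 0.03 over all genes tested. Members of this and the other lists were chosen with earlier results of these data known, so such shares may reflect that choice.

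Regulators named for the earliest T cell steps were not called. *Tcf7*, which encodes TCF1, had 0, 1 and 6 reads in sgLmo2 and 1, 1 and 4 reads in sgCbfa2t3, so a difference was not detectable at this depth. *Gata3* read 40.1, 35.2 and 34.5 TPM against 27.9, 28.0 and 32.7 TPM (0.30 ± 0.21, adjusted p = 0.707). *Bcl11a*, important for lymphoid progenitors, read 18.7, 26.9 and 17.5 TPM against 30.0, 28.5 and 23.3 TPM (-0.38 ± 0.26, adjusted p = 0.696), and both groups lay below its sgControl libraries at 38.9, 57.3 and 38.1 TPM. *Hes1*, a Notch target gene, had 1, 1 and 0 reads in sgLmo2, 10, 14 and 3 reads in sgCbfa2t3 and 0, 0 and 2 reads in sgControl (adjusted p = 0.186). None of the 18 tested genes of the Notch pathway list was called by limma, edgeR or DESeq2, with 3 (16.7%) at an unadjusted p under 0.05 in limma. Of all genes tested, 0.622% were called and 9.52% had such an unadjusted p.

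Called B lineage genes lay on both sides. *Pax5*, the B cell identity factor downstream of Ebf1, was low in all libraries, with 9.05, 18.1 and 6.57 TPM in sgLmo2 and 1.07, 2.85 and 2.21 TPM in sgCbfa2t3 (1.94 ± 0.49, adjusted p = 0.0422). Its call did not survive the loss of any library, with adjusted p from 0.0578 to 0.412, nor a pseudocount of 0.1 (0.0903) or the test of all genes above 0 (0.15). *Il7r*, the receptor chain for the IL-7 in the medium, read 192, 216 and 209.8 TPM against 137, 140.5 and 139.6 TPM (0.56 ± 0.11, adjusted p = 0.00289). In contrast, *Irf8* (chr8:120736358-120756694), a factor of B cells, dendritic cells and monocytes, read 50.9, 58.2 and 61.9 TPM in sgLmo2 and 129, 166 and 119 TPM in sgCbfa2t3. The difference was -1.25 ± 0.15 (adjusted p = 9.7e-08), and here sgControl, with 111, 120.4 and 116 TPM, overlapped sgCbfa2t3 and lay above sgLmo2. *Irf8* was the nearest gene of 8 Cbfa2t3 peaks, the highest with a score of 78.6 at 38674 bases from its start. *Dntt*, the terminal transferase that adds bases at antigen receptor joints, read 50.9, 65.0 and 51.5 TPM against 131, 95.9 and 119.7 TPM (-1.04 ± 0.15, adjusted p = 2.12e-05). Of 17 tested B lineage genes, 3 were called higher in sgLmo2 (with *Ly6d*) and 2 higher in sgCbfa2t3, together 29.4% beside 0.622% of all genes tested, and the list's median was 0.09. These members, too, were chosen with earlier results of these data known.

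**Figure D3:**
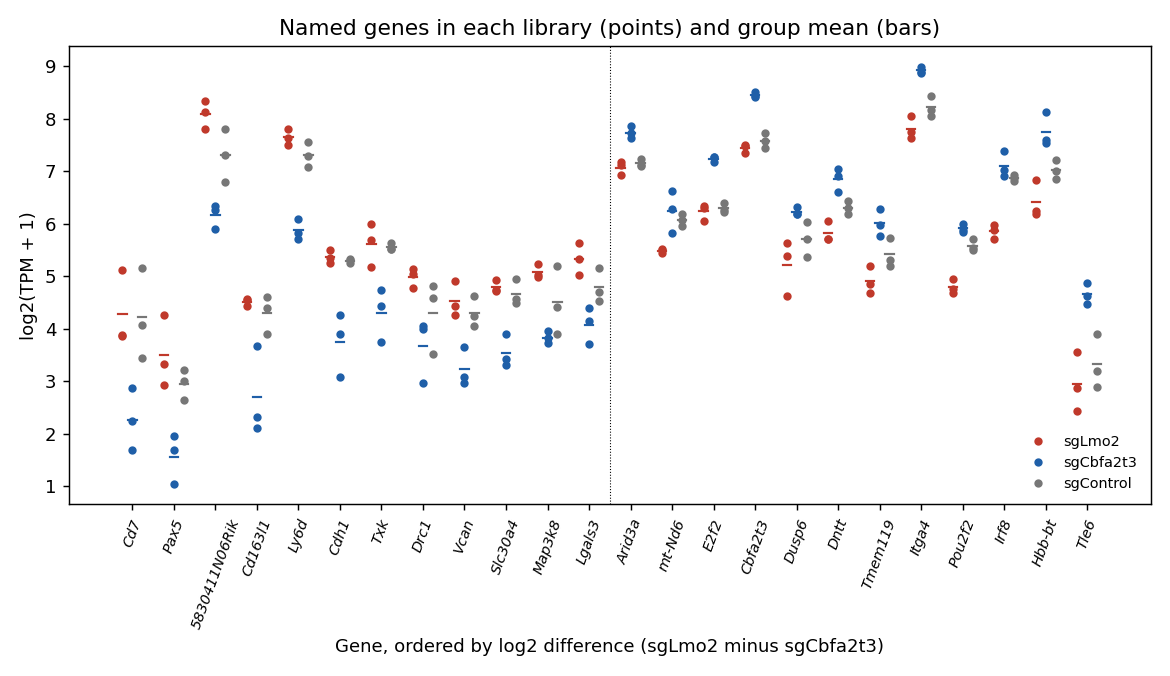
Points are single libraries on the log2(TPM + 1) scale and short bars are group means, for 24 genes chosen by rule, with sgLmo2 in red, sgCbfa2t3 in blue and sgControl in grey. Left of the dotted line are genes higher in sgLmo2 and right of it genes higher in sgCbfa2t3. The rule took only called genes whose red and blue points do not overlap. The grey points lie beside the red for *Cdh1* and *E2f2* and beside the blue for *Irf8*.

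Other named genes were also higher in sgCbfa2t3. *Itga4*, the alpha chain of an integrin that holds progenitors to stroma, read 263, 198 and 212 TPM in sgLmo2 and 506, 474 and 468 TPM in sgCbfa2t3 (-1.11 ± 0.10, adjusted p = 6.81e-11). *Pou2f2*, an octamer-binding factor of B cells, read 26.0, 29.8 and 24.7 TPM against 57.9, 62.8 and 56.5 TPM (-1.11 ± 0.20, adjusted p = 0.000481). *Tmem119*, a membrane protein whose promoter peak is printed above, read 27.7, 24.4 and 35.6 TPM against 61.7, 77.1 and 53.2 TPM (-1.10 ± 0.20, adjusted p = 0.000691). For these 3 genes sgControl lay between, apart from both groups. For *Tmem119* the gap to sgLmo2 was smaller than 1 read, with 35.6 TPM in sgLmo2 replicate 3 and 35.8 TPM in sgControl replicate 3.

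*Tle6*, a Groucho-related protein, had the largest difference toward sgCbfa2t3 among the called genes, with 10.7, 6.36 and 4.38 TPM against 23.6, 21.1 and 28.3 TPM (-1.70 ± 0.34, adjusted p = 0.00326). Its adjusted p was 0.0519 without sgLmo2 replicate 3 and 0.0572 without sgCbfa2t3 replicate 3. *Arid3a*, a DNA-binding factor of B and hematopoietic cells with a Cbfa2t3 peak of score 316.2 in an intron, read 138, 143 and 120.0 TPM against 197, 210.1 and 229.9 TPM (-0.67 ± 0.11, adjusted p = 0.000348). *Dusp6*, a phosphatase that dampens ERK signals, read 48.6, 40.6 and 23.6 TPM against 78.3, 71.4 and 72.0 TPM (-1.02 ± 0.20, adjusted p = 0.00186; 0.0797 without sgLmo2 replicate 3). *Hbb-bt*, an adult beta globin gene, read 113, 74.8 and 71.2 TPM against 277, 191 and 184 TPM (-1.33 ± 0.15, adjusted p = 2.11e-08). Its near copy *Hbb-bs* had 0 reads in all 6 libraries, so how reads shared by both were assigned is uncertain. It was the 1 call among 8 tested erythroid and megakaryocyte genes (12.5%, beside 0.622% of all genes tested). *mt-Nd6*, the light-strand gene of the mitochondrial genome, was called at -0.75 ± 0.18 (adjusted p = 0.0224), and the call was lost when any library but sgCbfa2t3 replicate 1 was left out (adjusted p from 0.07 to 0.284). Strand use in the counting is not given in the sources used here, and this gene lies antisense to its neighbours.

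The cell cycle list had 2 called genes of 43 tested (4.65%, beside 0.622% of all genes tested), both higher in the libraries labelled sgCbfa2t3. *E2f2* (chr4:136172394-136196057), an activator of S phase genes, read 65.6, 80.2 and 77.8 TPM in sgLmo2 and 153, 143 and 153 TPM in sgCbfa2t3 (-1.0 ± 0.13, adjusted p = 1.61e-06), with sgControl beside sgLmo2 at 76.1, 74.1 and 83.3 TPM. *Ccnd2*, the cyclin D of lymphocytes, read 988, 1004 and 1041 TPM against 1445, 1517 and 1770.4 TPM (-0.64 ± 0.07, adjusted p = 8.41e-08). Of the 43, 35 (81.4%) had a negative difference, beside 46.0% of all genes tested, and the median was -0.15 (39 and -0.18 after scaling by size factors). Summed over the list, the libraries stood at 10736, 10622 and 10726 TPM in sgLmo2 and at 11996, 12168 and 12369 TPM in sgCbfa2t3, with sgControl at 11047, 10747 and 10779 TPM. The sums did not overlap, as was the case for single values of 14.5% of all genes tested. Abundant members weigh most in them, such as the called *Ccnd2* and *Top2a* (means of 2070 and 2348 TPM, not called). Inhibitors of the cycle such as *Cdkn1a* also add to the sums.

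Of 20 tested members and partners of the Lmo2 complex, *Cbfa2t3* itself and *Lmo4*, a LIM-only relative that also binds Ldb1, were called (10.0%, beside 0.622% of all genes tested), both higher in sgCbfa2t3. *Lmo4* read 162, 222 and 232 TPM against 261, 324 and 302 TPM (-0.54 ± 0.11, adjusted p = 0.00557; 0.147 without sgLmo2 replicate 1 and 0.15 without sgCbfa2t3 replicate 2). *Lyl1*, a helix-loop-helix partner of Lmo2, read 189, 161 and 160.0 TPM against 196, 188 and 216 TPM (-0.23 ± 0.11, adjusted p = 0.5). *Id2*, which sequesters E proteins, read 154, 158 and 154 TPM against 206, 257 and 199 TPM (-0.49 ± 0.11, adjusted p = 0.0155), and its adjusted p was 0.0719, 0.0968 and 0.298 without sgLmo2 replicate 1, sgLmo2 replicate 3 and sgCbfa2t3 replicate 2, and 0.0565 with all 15 libraries in the fit. Among 19 tested corepressor genes of ETO proteins, *Cbfa2t3* was the 1 call.

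Further named genes were higher in sgLmo2. The kinase genes *Map3k8* (31.7, 36.7 and 30.7 TPM against 14.5, 13.1 and 12.2 TPM) and *Pim2* (159, 226 and 259 TPM against 114, 154 and 131 TPM) differed by 1.25 ± 0.26 (adjusted p = 0.00535) and 0.67 ± 0.13 (adjusted p = 0.00257). The first lost its call without sgLmo2 replicate 2 (adjusted p = 0.0845) and the second without sgLmo2 replicate 3 (0.144). *Lgals3*, a galectin, differed by 1.25 ± 0.25 (adjusted p = 0.00372; 0.0515 to 0.0924 without sgLmo2 replicate 2 or 3 or sgCbfa2t3 replicate 2). The differences of *Drc1*, a ciliary dynein regulator, *Slc30a4*, a zinc transporter, *Vcan*, a matrix proteoglycan, and *Tyrobp*, an adaptor of myeloid and NK receptors, were 1.31 ± 0.30, 1.26 ± 0.29, 1.29 ± 0.33 and 0.48 ± 0.12. Their adjusted p values were 0.0128, 0.0196, 0.0491 and 0.042. Each of the 4 calls rested on several single libraries, since leaving out any of 3 libraries for *Drc1* (sgLmo2 replicates 1 and 3, sgCbfa2t3 replicate 2; up to 0.184) or any of 5 for the others (up to 0.154, 0.27 and 0.31) ended it. The library whose loss left the call was sgCbfa2t3 replicate 1 for *Slc30a4*, sgCbfa2t3 replicate 3 for *Vcan* and sgLmo2 replicate 1 for *Tyrobp*. The call for *Drc1* also ended with all 15 libraries in the fit (0.0646), that for *Tyrobp* with edgeR, DESeq2, size factors and a pseudocount of 0.1 (0.0587 to 0.0789), and that for *Vcan* with DESeq2, size factors, the pseudocount and both other filters (0.0534 to 0.109).

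The other lists are read beside the 0.622% of all genes tested that were called and the 9.52% with an unadjusted p under 0.05 in limma (9.45% in edgeR, 6.07% in DESeq2), and the lists were chosen with results of these data known. Cytokine receptor and Jak-Stat genes had 2 calls of 34 tested (5.88%), *Il7r* and *Pim2*, with a median of 0.15. The Ly6 and lymphoid surface list had 3 calls toward sgLmo2 and *Itga4* toward sgCbfa2t3 among 20 (20.0% called), with a median of 0.30. Interferon response genes had 0 calls of 24 in limma, edgeR and DESeq2, with 9, 7 and 5 at an unadjusted p under 0.05, and 19 of the 24 (79.2%) had a positive difference, beside 54.0% of all genes tested (18 with edgeR or DESeq2). Myeloid genes had 1 call each way among 16 in limma (12.5% called), *Tyrobp* and *Irf8*, while edgeR and DESeq2 called *Irf8* alone. Of the 16, 7 (43.8%) had an unadjusted p under 0.05 in limma, and 7 differences were positive and 9 negative. *Cebpa*, the granulocyte and monocyte regulator, met the DEG rule alone (-1.02 ± 0.42, adjusted p = 0.398). *Mpo*, low with means of 1.12 and 7.15 TPM, was not called (-2.14 ± 0.57, adjusted p = 0.0716). Dendritic cell genes also had 1 call each way among 13, *Ccr9* and *Irf8*, and NK and innate lymphoid genes had *Id2* among 10. Neither limma, edgeR nor DESeq2 called a gene in the following lists, for which the count at an unadjusted p under 0.05 in limma is given. It was 4 of 25 stem and progenitor genes, 4 of 27 p53 targets, 3 of 27 Atf4 and amino acid response genes, 5 of 26 calcium and cAMP signalling genes and 2 of 12 Bcl2 family genes. It was 0 of 10 MHC class II genes, 1 of 2 mast cell genes, 1 of 6 OP9 stroma genes and 1 of 48 ribosomal protein genes, whose median was 0.00. *Id2* was the 1 call among 7 E and Id proteins and *mt-Nd6* the 1 call among 8 mitochondrially encoded genes.

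**Figure D4:**
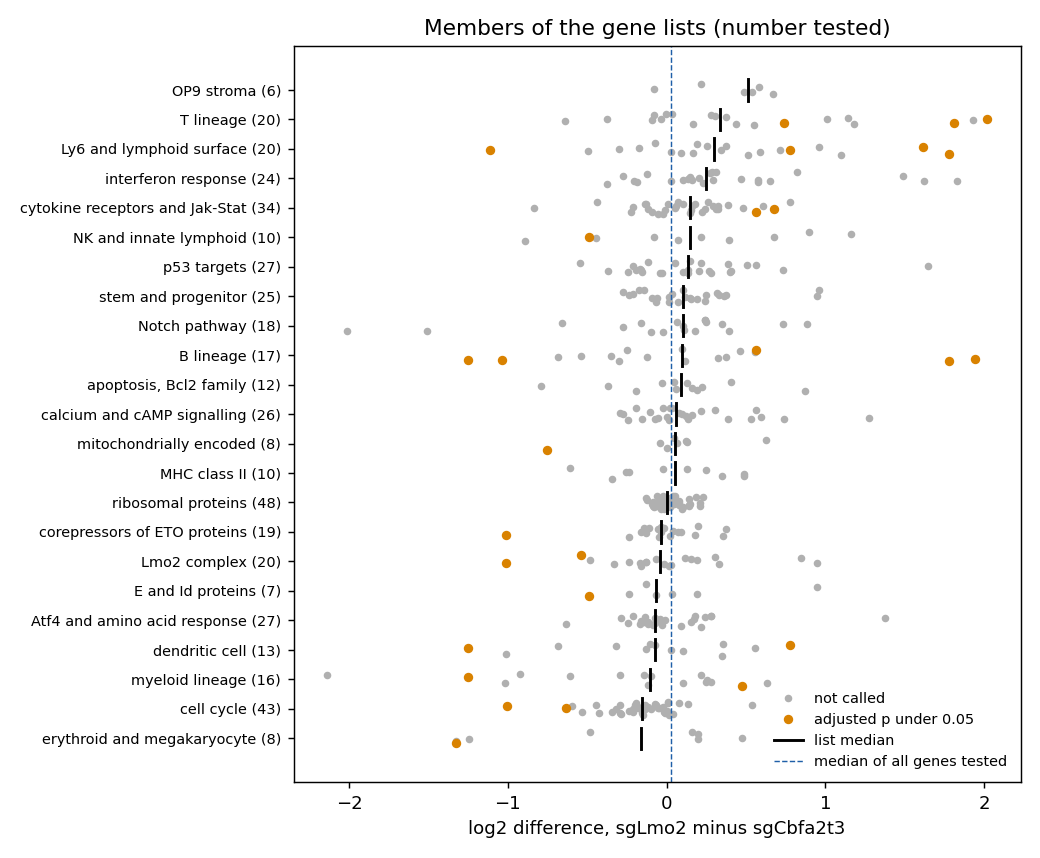
Each point is the log2 difference, sgLmo2 minus sgCbfa2t3, of 1 tested member of a gene list (rows, number tested in parentheses), with called members in orange, the list median as a black bar and the median of all genes tested, 0.03, as a dashed line. The T lineage median stands at 0.34 and the cell cycle median at -0.15.

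For most called genes the sgControl libraries, which the fit did not use, lay nearer to sgLmo2. Their mean lay between the groups for 66 of the 72 called genes (91.7%, beside 34.9% of all genes tested), and was nearer to sgLmo2 for 59 (81.9%, beside 56.0%). For 42 genes the sgCbfa2t3 libraries did not overlap sgControl while the sgLmo2 libraries did (58.3%, beside 12.6% of all genes tested). The reverse held for 7 genes (9.72%, beside 7.4% of all), *Irf8* and *mt-Nd6* (lower in sgLmo2) and *Adgre1*, *Vim*, *Gas7*, *Oxr1* and *Xbp1* (higher in sgLmo2). For 15 genes both groups stood apart from sgControl on opposite sides (20.8%, beside 0.337% of all), and for 8 both overlapped it (11.1%, beside 77.1%). Since a difference between the groups was what chose the genes, nothing is read from these shares. Overlap with sgControl is a description of 3 libraries, not a test of either knockout against it.

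**Figure D5:**
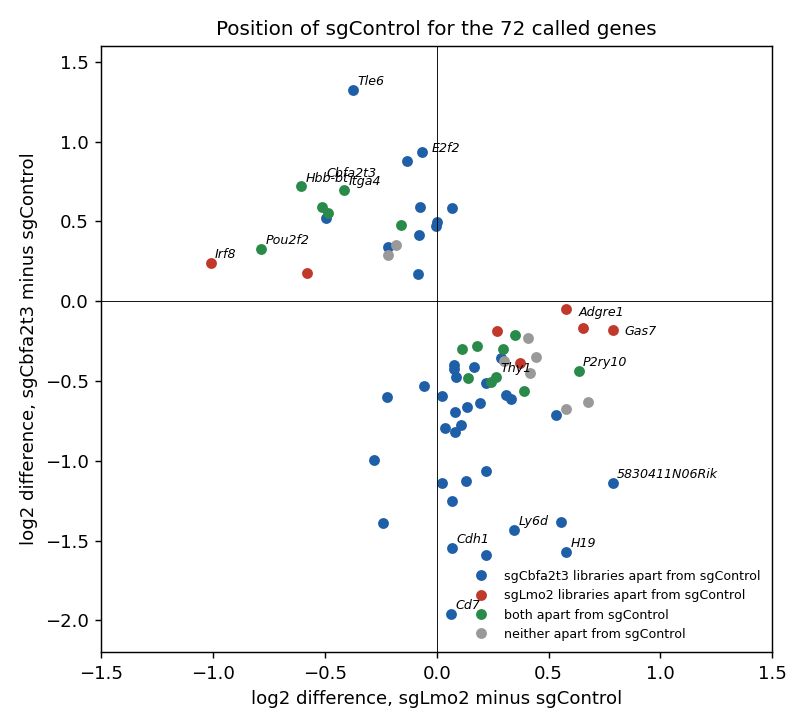
Each point is 1 of the 72 called genes, with its log2 difference from sgControl in sgLmo2 on the x axis and in sgCbfa2t3 on the y axis; both axes use the same 3 sgControl libraries. Blue points (42) are genes whose sgCbfa2t3 libraries alone stand apart from sgControl, red points (7) those of sgLmo2 alone, green points (15) both and grey points neither.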

How the data were processed

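QuantSeq 3′ mRNA sequencing covered 3 libraries each of sgLmo2, sgCbfa2t3 and sgControl, named by their labels and described in the study as biologically independent. The authors trimmed reads with fastp, mapped them to mm10 with STAR and scaled each library to a common total of reads. The deposited values, called TPM, are CPM, since no gene length enters, and whole reads were recovered for at least 99.9982% of values in each library (tolerance 0.1 reads). The authors' peak lists give a HOMER score (15 or more) for peaks reproducible in 2 replicates per factor, mapped with Bowtie 1.1.1. Peaks were joined to genes by the deposited nearest gene.

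Genes were tested with limma 3.58.1 (lmFit, eBayes with trend) in R 4.3.3 on log2(TPM + 1) over the 6 libraries, with Benjamini-Hochberg adjustment over all 11583 genes. Its prior carried 39.9 degrees of freedom beside 4 residual, so that adjusted p-values rest on spread shared across genes. Exact two-sided permutation tests of single genes cannot give a p under 0.1 with 3 against 3. The steps were tested on simulated data. The genes named are the 4 targets, up to 12 a direction with the largest called differences (protein-coding, mean above 10 TPM, groups not overlapping), called or DEG members of the gene lists, 10 regulators and surface genes of earlier results, and *Ebf1*. Members and lists were chosen with earlier results of these data known. Gene coordinates are those of GENCODE vM21 (mm10), and 11575 of 11583 identifiers matched. Sequences were read from the RefSeq copy of GRCm38.p6. Motif windows were searched for each motif separately, so matches may overlap. Alternatives were a pseudocount of 0.1, other filters, all 15 libraries, a replicate block, size factors, the study's test on unlogged values, edgeR 4.0.16 and DESeq2 1.42.0 on recovered reads, and leaving out each library. An entry naming no gene was dropped (at most 5.86e-05% of reads). Sequences of other peaks near named genes are not reported here.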

Additional observations from a re-analysis of the deposited data

Results flagged for a closer look

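For 15 of the 72 called genes, all 3 sgLmo2 libraries lay on one side of all 3 sgControl libraries and all 3 sgCbfa2t3 libraries on the other. Some gaps between sgLmo2 and sgControl were smaller than 1 read. For *Tmem119* sgLmo2 replicate 3 read 35.61 TPM and sgControl replicate 3 read 35.77 TPM. For *Arid5a* sgLmo2 replicate 1 read 46.37 TPM and sgControl replicate 3 read 46.32 TPM. The genes were picked for a difference between these groups, both differences use the same sgControl libraries, and the difference of each group from sgControl was not tested. For 9 genes sgLmo2 was the higher group, with log2 differences (sgLmo2 minus sgCbfa2t3) of 1.07 for *P2ry10*, 0.95 for *Arid5a*, 0.74 for *Ctsl*, 0.74 for *Thy1*, 0.62 for *Stk17b*, 0.59 for *Enah*, 0.56 for *Il7r*, 0.46 for *Ifitm1* and 0.41 for *Mgst2*. For 6 genes sgCbfa2t3 was the higher group, with -1.33 for *Hbb-bt*, -1.11 for *Pou2f2*, -1.11 for *Itga4*, -1.10 for *Tmem119*, -1.04 for *Dntt* and -0.64 for *Ccnd2*. *Pou2f2* stood 0.79 below sgControl in sgLmo2 (log2 difference -0.79) and 0.33 above it in sgCbfa2t3. *Itga4* showed -0.41 and 0.70, and *Hbb-bt* -0.61 and 0.72. *P2ry10*, a lymphocyte receptor of lysophospholipids, showed 0.63 and -0.44. *Il7r* showed 0.35 and -0.21. The calls for *Arid5a*, *Ctsl* and *Mgst2* were lost without single libraries, with adjusted p of up to 0.178 (without sgLmo2 replicate 3), 0.0847 (without sgLmo2 replicate 1) and 0.2 (without sgCbfa2t3 replicate 3), and that for *Mgst2* also with edgeR, DESeq2, size factors and a pseudocount of 0.1 (0.0603 to 0.0857).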

How the results depend on the processing

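Direction was the same for all 72 called genes under each alternative in which they were tested. Since the genes were picked for a difference in these same libraries, that outcome was largely fixed in advance. Beside the 72 genes, the alternatives gave 65 (pseudocount 0.1), 71 (all genes above 0), 69 (mean above 10), 82 (all 15 libraries), 70 (size factors), 70 (edgeR) and 68 (DESeq2). The replicate block gave 140 genes, 99 of them higher in sgLmo2, held all 72 and called *Bcl11b* (adjusted p = 0.0221). Same-numbered libraries correlated by 0.0348 to 0.079 in their deviations from the group means, each library correlating best with its own number, and nothing says that they were prepared together, so the numbers were not used as pairs. The study's test on unlogged values gave 0 genes at an adjusted p under 0.05, 939 unadjusted and 52 DEGs. Leaving out each library gave 39 to 69 genes and 85 to 127 DEGs, with 61.4% to 74.6% of the adjusted calls higher in sgLmo2. The share of called genes near a peak was 40.3% (Cbfa2t3) and 31.9% (Zbtb1) within 10 kb, beside 12.8% and 22.2% of all genes tested, and 51.4% and 25.0% with a score of at least 30, beside 13.0% and 14.5%. Of 32 named called genes, 16 were called under all alternatives but the unlogged test, which called none. DESeq2 gave no adjusted p for *Cd7* and *Pax5*. Directions reversed for genes that were not called: *Tcf7* (0.18 unlogged, 0.13 edgeR, and 0.35, 0.06 and 0.26 without sgLmo2 replicate 1 or 2 or sgCbfa2t3 replicate 3, with -0.70 without sgLmo2 replicate 3 and -0.77 with a pseudocount of 0.1), *Lmo2* (-0.18 and -0.02 without sgLmo2 or sgCbfa2t3 replicate 2, in a range to 0.53) and *Cbfa2t2* (0.20 and 0.04 without sgLmo2 replicate 3 or sgCbfa2t3 replicate 1, in a range from -0.39). The 3-read floor limits low genes such as *Tcf7* and *Hes1*.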

Other observations

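Several called genes lay outside the lists and the naming rule, and those given here were chosen after their values were seen. *H19*, an imprinted long non-coding RNA, had the largest difference of all called genes, with 67.3, 87.0 and 94.2 TPM in sgLmo2 and 15.5, 13.1 and 27.1 TPM in the libraries labelled sgCbfa2t3 (2.15 ± 0.22, adjusted p = 3.36e-09). The sgControl libraries read 41.2, 72.3 and 54.5 TPM. *Jchain*, which encodes the joining chain of polymeric immunoglobulins and is transcribed in lymphoid progenitors, was abundant, with 1097, 1424 and 1503 TPM against 606, 760.0 and 714 TPM (0.94 ± 0.09, adjusted p = 2.84e-10). A Cbfa2t3 peak with a score of 117.1 lay at -6971 bases from its start. The calcium-binding *S100a4* and *S100a6*, neighbours on chromosome 3, read 265, 285 and 245 TPM against 144, 163 and 149.6 TPM and 73.5, 64.5 and 60.8 TPM against 42.4, 29.7 and 33.8 TPM. Their differences were 0.80 ± 0.11 (adjusted p = 2.5e-06) and 0.90 ± 0.19 (adjusted p = 0.00406). The second call was lost without sgLmo2 replicate 1 (0.0719) or sgCbfa2t3 replicate 2 (0.0578).

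*Gas7* and *Adgre1* had sgLmo2 libraries apart from sgControl. *Gas7*, an actin-associated protein gene with a Cbfa2t3 peak of score 251.8 in an intron, read 52.6, 58.7 and 57.0 TPM in sgLmo2, 37.0, 24.0 and 24.9 TPM in sgCbfa2t3 and 27.9, 36.5 and 32.2 TPM in sgControl (0.97 ± 0.20, adjusted p = 0.00497), and its adjusted p was 0.0666 without sgLmo2 replicate 3 and 0.0629 without sgCbfa2t3 replicate 2. *Adgre1*, which encodes the macrophage antigen F4/80, read 152, 208 and 158 TPM in sgLmo2, 85.8, 106 and 99.2 TPM in sgCbfa2t3 and 82.5, 115 and 134 TPM in sgControl (0.82 ± 0.13, adjusted p = 0.000106). *Hoxa5*, a homeobox gene of progenitors, read 288, 331 and 408 TPM against 210.2, 224 and 248 TPM (0.58 ± 0.11, adjusted p = 0.00114; 0.0888 without sgLmo2 replicate 3), with sgControl at 268, 277 and 371 TPM. *Tle5*, a short Groucho-related protein gene, differed like *Tle6* toward sgCbfa2t3, with 148, 168 and 146 TPM against 180.2, 240.4 and 238 TPM (-0.50 ± 0.12, adjusted p = 0.0196). Its call was lost without sgLmo2 replicate 1 or 3 or sgCbfa2t3 replicate 2 or 3 (adjusted p from 0.107 to 0.254).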
